A study of Danio rerio with 4 samples.

Results

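Chromosome 22 of the zebrafish carried 1561 of the 37625 CTCF peaks in the deposited list, and 1561 of the 36540 that lay on the 25 chromosomes. Its peaks were taken as every entry of the list placed on that chromosome. The chromosome itself was chosen by its number of peaks per Mb, the highest of all, so counts and positions are given here as a description with no test. The list came from ChIP-seq on whole AB-strain embryos at the prim-5 stage (24 hpf, hours after fertilisation), with 2 ChIP libraries precipitated through an HA epitope on CTCF and 2 libraries of input DNA. Embryos of both kinds of library had the labelled genotype ctcf{HPSH} and came from parents heterozygous for the tagged allele, 2000 embryos to a replicate, and the labelled control was input DNA rather than untagged embryos. Peaks were called on the combined replicates, so no value per replicate exists in the list, and the depth of the libraries is unknown. In whole embryos, a site bound in few cells and a site bound weakly in many cannot be told apart.

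Through an array of zinc fingers, CTCF binds a long, directional DNA motif. With cohesin, the ring-shaped complex that extrudes chromatin loops, it sets the anchors of many loops and the borders of many topological domains in vertebrates. It also blocks contacts between enhancers and promoters at insulators.

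CTCF peaks on chromosome 22 were dense for its length, which was the shortest but one. The 1561 peaks were spread over 39.2 Mb, from the first base to the end of the last peak, at 39.8 per Mb (95% exact Poisson interval 37.9 to 41.9). The other 24 chromosomes had 27.5 ± 4.55 per Mb (SD over chromosomes), with a range from 14.6 on chromosome 4 to 36.5 on chromosome 25. The next in order were chromosome 25, with an interval of 34.6 to 38.5, and chromosome 18, with 35.0 per Mb and an interval of 33.4 to 36.7. Poisson intervals here cover counting error only. In bases, the peaks covered 1.28% of chromosome 22, against 0.907 ± 0.158% of the other 24, of which chromosome 18 reached 1.26%. Chromosome 22 made up 2.92% of the span of all chromosomes and held 4.27% of their peaks.

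**Figure D1:**
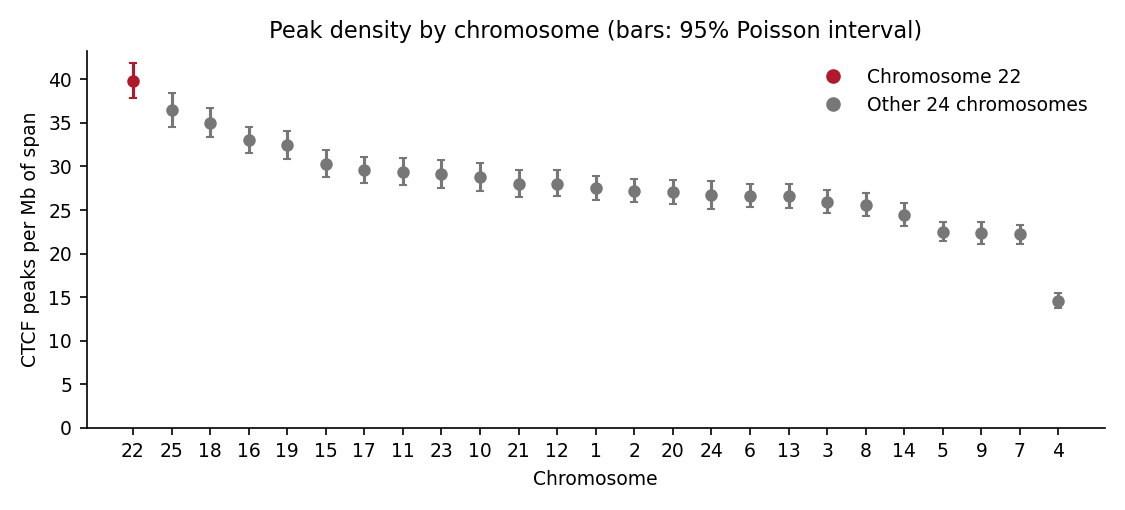
CTCF peaks per Mb of span for each of the 25 chromosomes, in order of density, with 95% exact Poisson intervals as bars. Chromosome 22, in red, stands at 39.8 per Mb, followed by chromosome 25 at 36.5, and chromosome 4 is lowest at 14.6.

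On average over the other chromosomes, peaks thinned out with distance from the ends, and a short chromosome consists of proportionally more end sequence. The count on chromosome 22 was therefore set against the mean density of the other 24 chromosomes in 8 classes of distance from the nearer end, applied to its own length. That profile gave 1183 peaks, so the observed 1561 were 1.32 times as many, an excess of 378. Each other chromosome treated in the same way had a ratio between 0.565 on chromosome 4 and 1.26 on chromosome 18, with chromosome 25 at 1.18. Against the 8 chromosomes closest in span only, the ratio for chromosome 22 was 1.27.

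Most of this excess lay on the left side, the sequence nearer to the first base. The left side held 903 peaks, against 592 in the profile of the other chromosomes, and the right side held 658, against the same 592. The left side thus contributed 82.4% of the excess. Much of this lay beyond the first 2 Mb. At 2 to 5 Mb from the left end there were 213 peaks, against 117 in the profile, or 25.3% of the excess. At 10 to 15 Mb there were 211, against 115, also 25.3%. Between them, at 5 to 10 Mb, the count was below the profile, with 122 peaks against 148 (-6.90%). On a count of peaks alone, 57.8% of those on chromosome 22 lay left of the middle, against 51.3 ± 5.88% on the other 24 chromosomes, of which 3 had a larger share there. The asymmetry of chromosome 22 was thus a little over 1 SD from the mean of the others and was not the largest of the set.

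**Figure D2:**
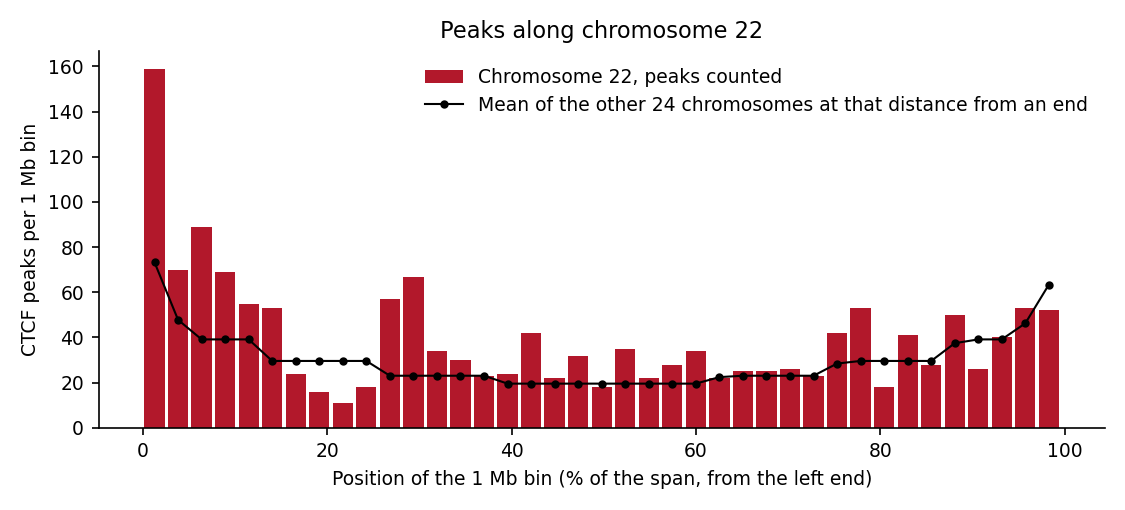
Peaks in each whole 1 Mb bin of chromosome 22 (red bars), by position as a percentage of the span from the left end, and the mean of the other 24 chromosomes at the same distance from an end (black line). The first bin reaches 159, a low between 6 and 10 Mb follows the dense left end, a second rise stands between 10 and 12 Mb, and the last bins lie close to or below the line.

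The first megabase was the densest of the whole 1 Mb bins (coordinates are those of danRer10). It held 159 peaks (95% exact Poisson interval 135 to 186), against 73.3 ± 23.6 in the first megabase of the other 24 chromosomes, where the range was 33 on chromosome 7 to 114 on chromosome 10. It made up 2.55% of the span, 10.2% of the peaks of chromosome 22 and 22.7% of the excess. That last share was 35.6% among the highest-scoring 50% of the peaks on all chromosomes and 45.8% among the highest-scoring 25%. With peaks joined across gaps of up to 10 kb it was -0.316%. Such joining takes away more peaks the denser they lie, so a dense stretch loses most by it. The peaks were spread through it. All but 1 of its 10 windows of 100 kb held 10 or more peaks, with 24 in the densest (100001 to 200000), 22 between 500001 and 600000 and 6 in the emptiest (200001 to 300000). Only 18 of the other 382 windows of chromosome 22 held as many as 10.

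Density was high through the whole of the left end, and the class in which chromosome 22 stood farthest above the others was not the outermost. At 0 to 0.25 Mb from the left end it had 200 peaks per Mb, against 121 ± 62.6 at the left end of the other 24 chromosomes, and 3 of those were denser, chromosome 4 the most with 228. At 0.25 to 0.5 Mb it had 132 per Mb, against 69.3 ± 26.7 and a highest value of 120. At 0.5 to 1 Mb it had 152 per Mb, against 51.4 ± 17.0 and a highest value of 90. The first peak began at 14258, close to the mean start of the first peak on the others, 13481 ± 11803. Chromosome 22 ranked second at 1 to 2 Mb with 70 per Mb and first at 2 to 5 Mb with 71 per Mb, against 38.8 ± 12.04 for the others, though chromosome 15 was close with 68.3.

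The right end showed no such excess. The last megabase, ending at the last peak, held 51 peaks, against 73.3 ± 18.9 on the other 24 chromosomes, and 21 of those held more. Within its outer 0.5 Mb there were 17 peaks, or 34 per Mb, against 80.3 ± 32.7 per Mb for the others, and only chromosome 2, with 12 per Mb, was sparser. From 0.5 Mb inward the right end was ordinary, with 68 per Mb at 0.5 to 1 Mb (66.3 ± 28.3 for the others) and 39.3 per Mb at 2 to 5 Mb (39.5 ± 8.94). Density in the 2 Mb at both ends together was 2.39 times that of the remaining sequence of chromosome 22, against 2.54 ± 0.746 on the others, 12 of which had a higher and 12 a lower ratio. That middling ratio combined a left end at 114.5 peaks per Mb, above the highest of the others (87.5), and a right end at 52.5 per Mb, below 18 of them.

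**Figure D3:**
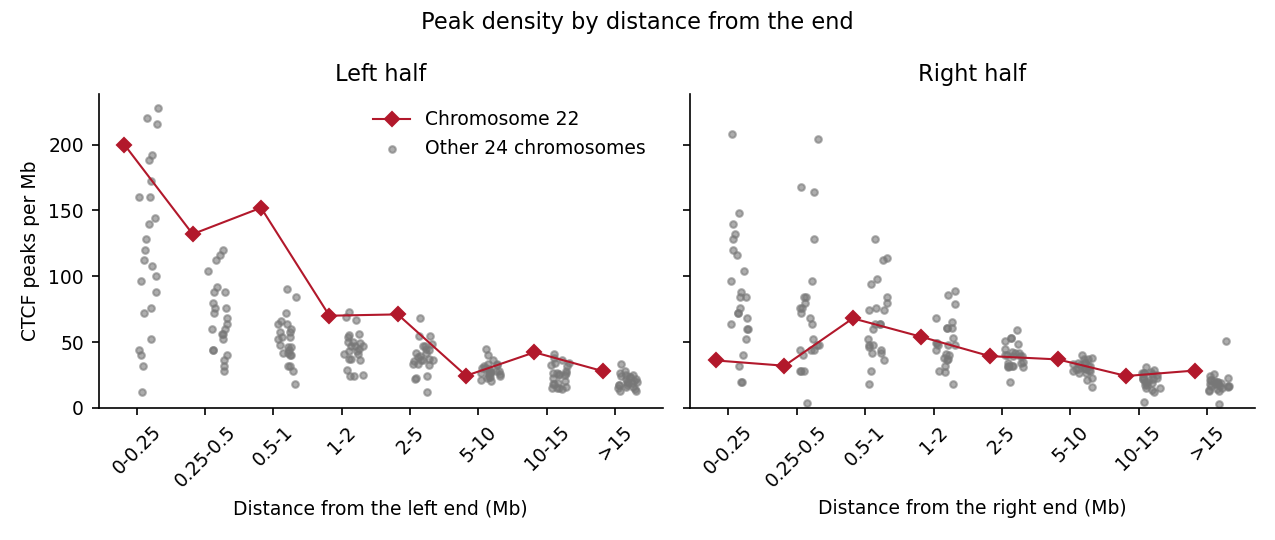
CTCF peaks per Mb by distance from the left end (left panel) and the right end (right panel), for chromosome 22 (red) and each of the other 24 chromosomes (grey points). On the left, chromosome 22 lies above every other chromosome at 0.25 to 0.5, 0.5 to 1, 2 to 5 and 10 to 15 Mb; on the right, it lies low in the outer 0.5 Mb and within the other points farther in.

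Away from the ends the density was also high, but not the highest. More than 5 Mb from both ends chromosome 22 had 896 peaks in 29.2 Mb, or 30.7 per Mb, against 22.7 ± 4.31 on the other 24 chromosomes, with chromosome 18 above it at 32.7. This sequence is 74.5% of the span and carried 50.2% of the excess. Of the 39 whole 1 Mb bins of chromosome 22, 17 held more than 34 peaks, the upper quartile of all bins, against 24.3% of the 1328 bins of all chromosomes. Of its 29 bins more than 5 Mb from both ends, 8 did so, against 13.1% of the 1078 such bins of all chromosomes. Since density chose the chromosome, these counts are a description only. The median bin held 32 peaks on chromosome 22 and 23 on the others.

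Density was uneven along the chromosome. Stretches with bounds chosen after the values were seen show the order, and the first and last of those given here take in sequence of the ends. The stretch from 1 to 6 Mb held 336 peaks at 67.2 per Mb (95% exact Poisson interval 60.2 to 74.8). That from 6 to 10 Mb held 69 at 17.3 per Mb (13.4 to 21.8), and the 4 bins held 24, 16, 11 and 18 peaks, all under the 29.6 per Mb that the other chromosomes averaged at 5 to 10 Mb from an end. From 10 to 12 Mb the density was again 62 per Mb (51.6 to 73.9), with 124 peaks. In the 17 Mb that follow it was 27.4 per Mb (24.9 to 30.0). The sequence more than 15 Mb from both ends, all within that stretch, held 258 peaks, against 180 in the profile of the other chromosomes. That was 1.44 times as many and made up 20.8% of the excess. From 29 Mb to the end the density was 40.1 per Mb (36.3 to 44.2). That last stretch takes in the right end, where the other chromosomes were dense too. Its outer 5 Mb held 223 peaks, against 239 in their profile. At 5 to 10 Mb from the right end there were 184, against 148. Since the bounds were cut where the density changed, the intervals describe each stretch and do not test their differences.

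The densest bins more than 5 Mb from both ends were 11000001 to 12000000 with 67 peaks and 10000001 to 11000000 with 57, which adjoin each other. Next came 5000001 to 6000000, which adjoins the dense left end, and 30000001 to 31000000, with 53 each. The bin at 11 Mb was 2.90 times the mean of the other chromosomes at that distance from an end, and the first megabase 2.17 times. These ratios leave out the spread of the others. On other chromosomes, the 1049 bins more than 5 Mb from both ends held up to 95 peaks, above the 67 of the bin at 11 Mb. The other first megabases, only 24 in number, held up to 114, against 159. The highest of many bins is not comparable with the highest of few. The densest 100 kb window of the bin at 11 Mb, 11100001 to 11200000, held 21 peaks, as many as the first 100 kb of the chromosome. Over all 39 bins, 27 lay above the mean of the other chromosomes and 12 below it.

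Neighbouring peaks on chromosome 22 lay a median of 12053 bp apart between centres, with quartiles of 4069 and 29062 bp (1560 pairs). The median on the other 24 chromosomes was 18059 ± 2249 bp, and the lowest of them, 13741 bp on chromosome 25, was above chromosome 22. Divided by the mean distance, which the density fixes, the median was 0.480 on chromosome 22 and 0.490 ± 0.0618 on the others. Of the others 7 had a lower ratio, down to 0.252 on chromosome 4, and 17 a higher one. This ratio does not show how the distances divide among short and long ones. Whether density accounts for the short spacing was not tested. Without the outer 2 Mb at both ends the medians were 14258 bp and 21256 ± 2596 bp.

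As a share of all pairs, those 2 to 10 kb apart were frequent on chromosome 22 and the closest ones were not. Shares in classes of fixed length depend on density, by which the chromosome was chosen, and were not scaled to it. The mean distance was 25104 bp on chromosome 22 and 37620 ± 8057 bp on the others. Pairs at most 1 kb apart made up 6.54% of those on chromosome 22, against 7.15 ± 1.05% on the others, and 17 chromosomes had a larger share. Pairs at 2 to 5 kb made up 15.8%, against 10.6 ± 1.14% with a highest value of 12.7%. Pairs at 5 to 10 kb made up 16.5%, against 12.4 ± 1.28% with a highest value of 15.3%. Per Mb of span, close pairs were also more numerous, with 0.791 at most 500 bp apart (0.539 ± 0.147 on the others), 1.81 at 500 to 1000 bp (1.43 ± 0.376) and 2.63 at 1 to 2 kb (1.58 ± 0.417), each the second highest of 25, and 6.30 at 2 to 5 kb (2.93 ± 0.658), the highest. Intervals over 100 kb made up 4.23%, against 9.09 ± 2.37%, below all 24 others. Chromosome 18, the densest more than 5 Mb from both ends, had a different makeup. Pairs within 2 kb made up 13.1% on chromosome 22 and 18.03% on chromosome 18.

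The larger share of pairs 2 to 10 kb apart, not scaled to density, was not limited to the dense left end. The 504 such pairs were 32.3% of the pairs on chromosome 22. Of them, 83 lay in the first megabase, 221 in the first 6 Mb and 234 more than 5 Mb from both ends, stretches that overlap. In the first megabase, with 159 of the 1561 peaks, 52.2% of the peaks followed their left neighbour at this distance. On the others this share was 38.6 ± 8.63%, with a highest value of 54.1%. More than 5 Mb from both ends, with 896 of the 1561 peaks, the share was lower, at 26.1%. On the others it was 18.2 ± 1.98% there, with a highest value of 21.0%. The share of interior peaks with a neighbour within 2 kb was 21.4% on chromosome 22 and 20.6 ± 3.21% on the others.

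**Figure D4:**
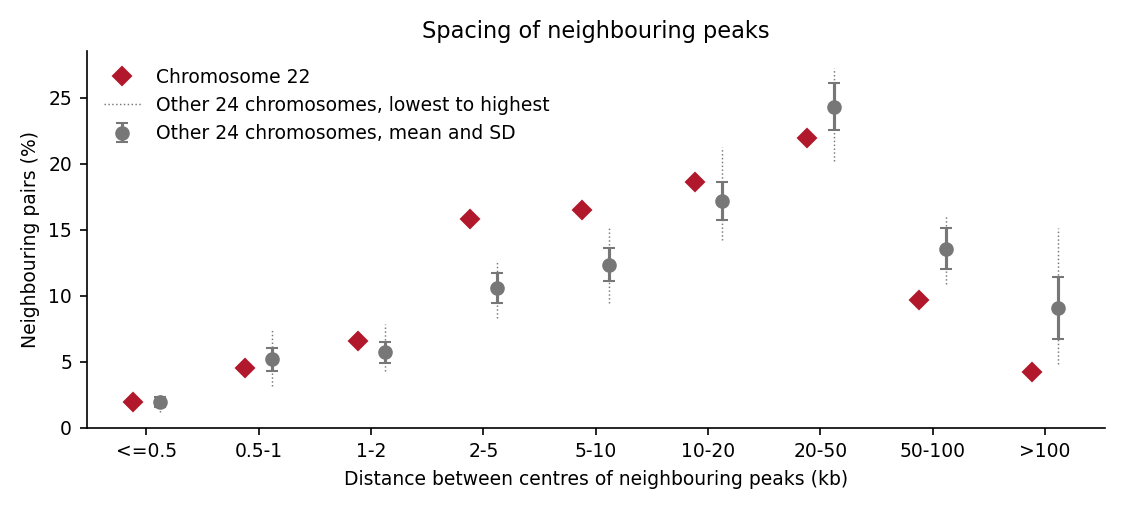
Share of neighbouring pairs in each class of distance between centres, for chromosome 22 (red diamonds) and the other 24 chromosomes (grey, mean with SD and dotted range). Chromosome 22 lies above the range of the others at 2 to 5 and 5 to 10 kb, within it up to 2 kb, and below it over 50 kb.

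Many of the peaks stood in short runs. Runs of 3 or more peaks, each at most 5 kb from the next, numbered 98 on chromosome 22 and held 372 peaks, or 23.8% of its peaks, against 16.8 ± 2.53% on the others, with 22.2% on chromosome 4. There were 2.50 such runs per Mb, against 1.26 ± 0.312. Runs at a fixed distance depend on density, by which the chromosome was chosen. Chromosomes 18 and 25, the next densest, came next with 1.90 runs per Mb each, and runs held 21.8% and 18.1% of their peaks. By the share of peaks in runs, chromosomes 22 and 18 had ranks 1 and 3 and chromosome 25 had rank 9. Chromosome 4, the sparsest, had rank 2, and the next sparsest, chromosomes 7, 9 and 5, had ranks 23, 25 and 24. Whether density accounts for the runs was not tested. The runs were not long, since the longest held 11 peaks and on the other chromosomes the longest runs held 6 to 15. It lay in the first megabase, between 403394 and 421799, and the next, of 9 peaks, between 519885 and 540171. In all, 22 runs with 109 of the 159 peaks of the first megabase began there.

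How many separate places the first megabase holds depends on how close peaks are treated. With peaks joined across gaps of up to 10 kb, its 159 peaks became 27 regions. In the first megabase of the other chromosomes, 73.3 ± 23.6 peaks became 26.5 ± 4.55 regions, so fewer peaks stood behind each region there. Joining at a fixed distance takes away more peaks the denser they lie, so a lead in density shrinks with it. Among the others the SD likewise fell, from 23.6 to 4.55. The number of regions alone therefore cannot tell how many separate places there are. Each region in the first megabase of chromosome 22 stood for 5.89 peaks on average. With only gaps of up to 500 bp joined, 140 remained, against 67.0 ± 19.8. Within the first megabase 87.4% of the peaks had a neighbour within 5 kb, against 62.3 ± 12.1% for the others, whose highest value was 79.8%. For a neighbour within 2 kb the share was 50.9%, against 36.2 ± 9.83%, and 2 chromosomes had more.

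The closest pair on chromosome 22 had its centres 314.5 bp apart (4319353 to 4319557 and 4319664 to 4319875), and both its peaks scored low, 193 and 240. The longest interval without a peak ran from 7612125 to 8148123, or 0.536 Mb between centres. The next were 9102192 to 9409639 (0.308 Mb) and 21857545 to 22139167 (0.282 Mb). The first pair of these intervals lay in the sparse stretch between 6 and 10 Mb. On 11 of the other chromosomes the longest interval was longer than on chromosome 22, up to 2.22 Mb on chromosome 4.

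Over the whole of chromosome 22, scores and widths of the peaks lay within the range of the other chromosomes. The authors' score, a whole number whose scale is not stated, had a median of 372 on chromosome 22 and 369 ± 9.02 over the medians of the other 24 chromosomes (exact permutation test of 1 chromosome against 24, two-sided p = 0.800, adjusted p = 0.800). The median width was 261 bp on chromosome 22 and 263 ± 2.90 bp on the others (exact permutation p = 0.640, adjusted p = 0.800). The summit lay a median of 6.97% of the width from the centre of the peak, and 7.18 ± 0.328% on the others (exact permutation p = 0.560, adjusted p = 0.800). With 25 chromosomes the smallest p that this test allows is 0.0800, so it cannot reach 0.05, and p-values were adjusted over these 3 readouts. Quartiles of the score were 276 and 543 on chromosome 22 and 274 and 531 over all peaks of the others.

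High scores were somewhat more frequent, and the first megabase held many of them. Of the peaks of chromosome 22, 184 (11.8%) scored above 750, the bound of the highest-scoring 10% of the peaks on all chromosomes. On the others this share was 9.88 ± 1.20%, and 2 of them had a larger one. Of these 184, 42 lay in the first megabase, where they made up 26.4% of the peaks. Among the remaining 1402 peaks of chromosome 22 the share was 10.1%.

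Peaks of the first megabase scored higher and were wider than those of the rest of the chromosome. Their median score was 508, with quartiles of 346.5 and 755.5, and the median of the other 1402 peaks was 364.5, with quartiles of 270 and 526. In 66.5% of pairs with 1 peak from the first megabase and 1 from outside it, the peak of the first megabase scored higher. On the other 24 chromosomes this share was 56.2 ± 4.86% and the median score of the first megabase was 422 ± 45.9. In each measure exactly 1 chromosome was above chromosome 22, in the median score chromosome 7, with 537 for its 33 peaks. The median width of 305 bp was above that of every other first megabase (279 ± 12.5 bp, highest 300). Median scores were 505 to 597.5 in the 100 kb windows from 400001 to 800000. They were near the median of the rest of the chromosome in 3 windows, with 365.5 in the densest (100001 to 200000), 358 between 800001 and 900000 and 368 between 900001 and 1000000.

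**Figure D5:**
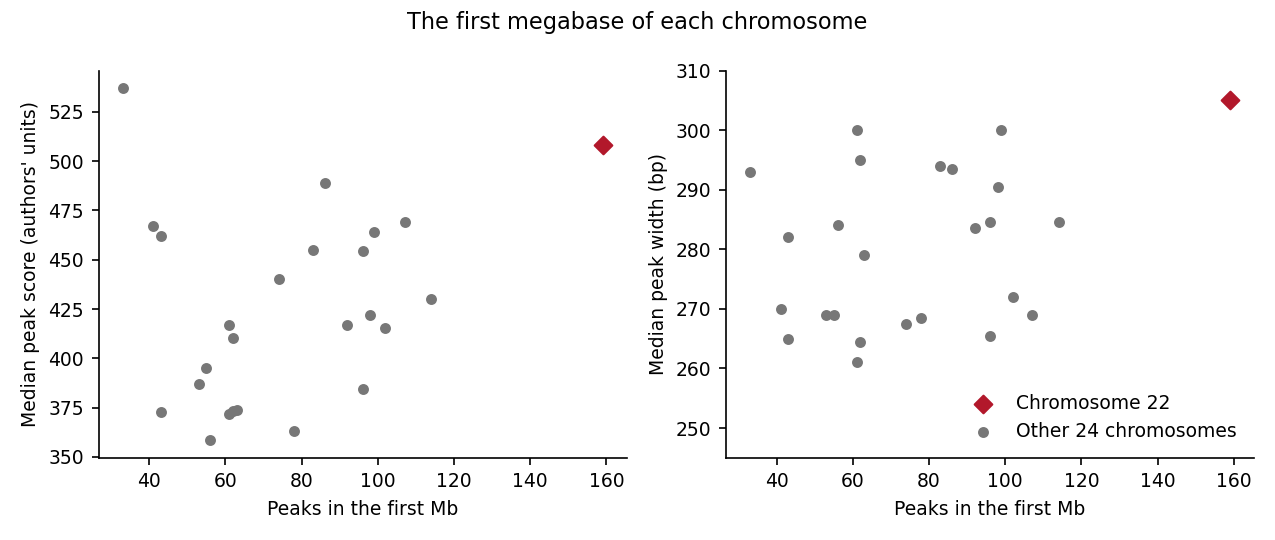
Median score (left panel, in the authors' units) and median width (right panel, in bp) of the peaks in the first megabase of each chromosome, against their number. Chromosome 22 (red) combines the highest number, 159, with a score of 508 and a width of 305 bp at the median; neither vertical axis starts at 0.

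The medians at the right end were no higher than those of the rest. In its outer 2 Mb, the median score of the 105 peaks was 355 and their median width 252 bp. Peaks more than 2 Mb from both ends had medians of 362 and 258 bp. High scores did occur at the right end, where 14 of the 105 peaks (13.3%) were above 750, against 9.86% of the peaks more than 2 Mb from both ends. The 105 peaks outranked those of that rest in 49.8% of pairs, against 55.5 ± 3.22% for right ends of the others, only 1 of which was lower. The 229 peaks in the outer 2 Mb on the left had a median score of 471 and outranked the rest in 63.3% of pairs, against 56.0 ± 3.84%. Both ends together gave 59.0%, against 55.8 ± 2.88%. Without the first megabase of every chromosome, an alternative chosen after the data had been seen, the share for both ends was 52.0% on chromosome 22, against 55.2 ± 3.04% on the others.

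Farther in, not every dense stretch had high scores. The 336 peaks between 1 and 6 Mb had a median score of 373, and 7.74% of them scored above 750. The 69 peaks of the sparse stretch between 6 and 10 Mb had a median of 377, with 4.35% above 750. The 124 peaks between 10 and 12 Mb had a median of 391.5 and 16.1% above 750, and the 465 peaks between 12 and 29 Mb a median of 337 and 9.03%. Across the 39 whole 1 Mb bins, Spearman's rho of the number of peaks and their median score was 0.298, and without the first bin it was 0.241. These bins adjoin each other and share one list, so the coefficients are a description. Wider peaks had higher scores (rho = 0.513 across the 1561 peaks, which are not independent).

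Peaks with and without a close neighbour on chromosome 22 had medians near each other outside the first megabase. The 369 peaks with another within 2 kb had a median score of 384 and the other 1192 a median of 368.5, and the close peaks ranked higher in 52.5% of pairs. Without the first megabase the medians were 367 and 363.5 and the share was 50.0%. The 52 peaks with no other within 50 kb had a median of 355.5, but 10 of them (19.2%) scored above 750, against 11.8% of all peaks of chromosome 22.

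High scores occurred at both ends and in the interior, though not in every bin. Of the 184 peaks above 750, 49 lay in the outer 2 Mb on the left, 42 between 12 and 29 Mb and 51 beyond 29 Mb. Only 3 lay between 6 and 10 Mb. The bins 9000001 to 10000000 and 28000001 to 29000000 held 0. The highest score, 3065, belonged to a peak of 474 bp at 58138 to 58611, with its summit at 58455, and it ranked 12 in the list of all chromosomes. It stood in a run of 6 peaks between 51934 and 61370 whose median score was 679. The second, 2233, lay at 680550 to 681060 and ranked 36. The third, 1822, lay near the middle of the chromosome at 22846565 to 22846917, 35803 bp from its left neighbour and 226890 bp from its right one. The next were at 2912510 to 2912927 (1754) and 181890 to 182871 (1658, 982 bp wide).

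The widest peaks were not the strongest. The widest, 1732 bp at 28234118 to 28235849, scored 484, with its summit 632.5 bp from the centre. The next in width were 1710 bp at 6019980 to 6021689, with a score of 525, and 1439 bp at 14328148 to 14329586, with a score of 750. Peaks of 1000 bp or more numbered 15, or 0.961% of the peaks of chromosome 22, against 1.25 ± 0.464% on the others, and 5 of the 15 were in the first megabase. The outermost peak on the left scored 387 (14258 to 14527) and that on the right 976 (39175540 to 39176076), where the nearest other peak was 93810 bp away. Which genes lie at these positions was not analysed here.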

How the data were processed

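The deposited list holds narrowPeak calls on the combined replicates, per the file headers. Per the submitters' processing notes, the build was danRer10 and the tools, in no stated order, were deepTools 3.0.1, MACS2, Picard 1.45, SAMtools 1.1, Bowtie2 2.2.5, cutadapt 1.3, FastQC 0.9.3 and CASAVA. For the calling threshold and the use of the input, the sources used here give nothing. The authors' score is a whole number without a stated scale, from 88 to 11089, and served only for ranks and medians. Signal, p and q were 0 throughout and were not used.

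Peaks were placed by their centres. Each span ends at the last peak of the chromosome, since no genome was at hand for lengths, and gaps in the assembly stayed in. The 1085 peaks on unplaced scaffolds were left out, also from score ranks and bounds. Ties in score ranks were split. Every SD is over chromosomes, not over embryos. The members, measures and peaks named (the 5 highest-scoring, the 3 widest, the outermost, the densest bins, the longest intervals and the closest pair) were chosen with earlier results of these data known. Code was tested on simulated peaks. Python 3.11.15, numpy 2.4.6, scipy 1.17.1, pandas 2.3.3 and matplotlib 3.10.9 were used.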

Additional observations from a re-analysis of the deposited data

How the results depend on the processing

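Of 52 alternatives to the planned results, 18 moved a value by more than 1.5 times (counts), 1 SD over the other chromosomes or the 95% Poisson interval, and 2, on the median score and width, turned the direction round. A further 27 concerned shares of the excess, and 1 of them turned round. The rest says little of stability where it could not differ: the exact tests cannot pass 0.05 under any setting, and the 1 Mb classes and the same-side expectation give the total excess of 378 by construction. Chromosome 22 remained the densest in all 7 alternatives for density. By construction, the highest-scoring 50% and 25% of the peaks on all chromosomes lowered its density to 20.3 and 10.6 per Mb (13.8 and 6.89 on the others). They also lowered its interior density to 14.8 and 7.47 per Mb and lengthened the neighbour distance to 21928 and 39238 bp. With the highest-scoring 25% the first megabase held 73 peaks (24.1 on the others) and the ratio of ends to rest was 3.42 (3.48 on the others). Joining peaks within 10 kb gave 21.5 per Mb (17.4 on the others), 27 in the first megabase (26.5) and a ratio of ends of 1.49 (1.62). The interior had 18.9 per Mb (15.8 on the others), rank 4 of 25. The neighbour distance was 32415 bp (38026 bp on the others), rank 24 of 25 from the longest, so no longer the shortest. The count was 1.15 times the profile of the other chromosomes. The share of the excess in the first megabase then turned to -0.316%, and it was 35.6% and 45.8% for the highest-scoring 50% and 25%. Joining at a fixed distance takes away more peaks the denser they lie. Without the outer 2 Mb the density was 34.9 per Mb, and the median score turned to 362, against 363.2 on the others. With gaps up to 500 bp joined the median width turned to 266 bp, against 265.96 bp. The score rank of end peaks was 62.9% for ends of 1 Mb, 54.3% for ends of 5 Mb and 52.0% without the first megabase. The causes were not tested. The share of the excess on the left side ranged from 58.5 to 104%. No paired analysis was possible because replicates were pooled before calling, and for the same reason no replicate could be left out. Depth is unknown, so absence from the list means that no peak was detected there.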
